A study of Mus musculus with 8 samples.

Results

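The genes described here are 10 genes that mark neutrophils and their granules: S100a8, S100a9, Camp, Ngp, Ltf, Lcn2, Elane, Mpo, Retnlg and Csf3r. They were taken as a fixed set by symbol, and each symbol matched 1 of the 56748 identifiers in the count table. RNA was sequenced from 8 libraries of tdTomato-positive cells, labelled as CXCL12-expressing cells from the apical papilla (soft tissue at the growing end of the tooth root). The cells were sorted from lower molars of mice at postnatal day 10, and all groups had received tamoxifen at postnatal day 3. Of the libraries, 4 are labelled cHet, with the genotype Ctnnb1(+/-), and 4 cKO, with the genotype Ctnnb1(-/-). Ctnnb1 encodes beta-catenin, the signal carrier of the canonical Wnt pathway, and the groups differ in how many copies are labelled as lost. The labels also name dental pulp as the tissue and dental follicle in the dissociation protocol, while no source used here names the transgene behind the deletion or the tdTomato label. The count columns are named cHet8, cHet11, cHet12 and cHet14 for the first group and cKO7, cKO9, cKO14 and cKO15 for the second. These numbers match no sample title, so each library was placed in its group only, and nothing states that the libraries came from separate animals. The p-values therefore measure the spread between libraries, which may be technical.

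Neutrophils are short-lived white blood cells that mature in bone marrow and carry granules filled in sequence. Primary granules, filled at the promyelocyte stage, hold myeloperoxidase and serine proteases. Secondary granules, filled later, hold lactoferrin, cathelicidin and related proteins, and the calcium-binding proteins S100A8 and S100A9 fill the cytosol of the mature cell. These genes are not known as products of dental papilla cells, but Ltf, Lcn2, S100a8 and S100a9 are also made by some epithelia and glands.

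The factors C/EBP and PU.1 are known to act on many granule genes, so the sequences in front of 6 of them are shown: the 2 genes that varied most closely together, S100a8 and S100a9, the secondary granule genes Ngp, Camp and Ltf, and the primary granule gene Mpo. Each is the 250 bases before the RefSeq start on GRCm38.p6, read 5′ to 3′ on the strand of the gene. The authors' build is GRCm39, so these coordinates do not apply to it. Capitals mark matches on either strand to the letters TTGCNNAA (a C/EBP core), GAGGAAGT (a PU.1 site) or to the TATA box in its usual form, which were chosen after the sequences had been seen, and no matches overlapped.
S100a8 (chr3:90668821-90669070, plus strand): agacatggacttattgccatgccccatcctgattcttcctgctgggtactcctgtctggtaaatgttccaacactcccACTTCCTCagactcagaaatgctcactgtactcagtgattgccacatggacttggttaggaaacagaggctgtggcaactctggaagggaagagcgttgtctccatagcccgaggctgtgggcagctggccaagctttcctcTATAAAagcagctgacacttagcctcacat
S100a9 (chr3:90695722-90695971, minus strand): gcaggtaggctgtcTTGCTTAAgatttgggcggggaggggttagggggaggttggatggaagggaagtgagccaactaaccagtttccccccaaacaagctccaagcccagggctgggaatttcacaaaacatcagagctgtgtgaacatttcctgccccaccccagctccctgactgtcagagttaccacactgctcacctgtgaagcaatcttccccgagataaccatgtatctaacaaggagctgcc
Ngp (chr9:110419558-110419807, plus strand): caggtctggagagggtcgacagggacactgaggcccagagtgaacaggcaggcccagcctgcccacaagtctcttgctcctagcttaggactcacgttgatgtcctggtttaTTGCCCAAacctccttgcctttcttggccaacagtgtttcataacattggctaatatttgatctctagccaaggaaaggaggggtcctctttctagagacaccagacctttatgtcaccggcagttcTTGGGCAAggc
Camp (chr9:109849457-109849706, minus strand): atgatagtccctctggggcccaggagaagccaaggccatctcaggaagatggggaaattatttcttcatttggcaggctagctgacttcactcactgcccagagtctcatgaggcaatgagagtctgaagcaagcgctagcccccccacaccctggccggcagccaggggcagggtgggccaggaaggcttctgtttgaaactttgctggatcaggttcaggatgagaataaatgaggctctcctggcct
Ltf (chr9:111019042-111019291, plus strand): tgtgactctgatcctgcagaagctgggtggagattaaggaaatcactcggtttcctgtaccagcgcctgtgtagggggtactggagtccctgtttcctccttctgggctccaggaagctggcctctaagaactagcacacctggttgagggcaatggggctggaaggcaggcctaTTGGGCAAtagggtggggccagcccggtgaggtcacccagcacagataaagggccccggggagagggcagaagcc
Mpo (chr11:87793534-87793783, plus strand): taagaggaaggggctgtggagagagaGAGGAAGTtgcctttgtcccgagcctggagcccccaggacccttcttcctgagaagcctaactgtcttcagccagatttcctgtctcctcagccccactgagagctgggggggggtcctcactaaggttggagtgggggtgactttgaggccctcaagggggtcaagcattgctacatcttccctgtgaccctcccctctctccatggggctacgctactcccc
S100a8 held a PU.1 match 172 to 165 bases and a TATA match 30 to 25 bases before its start, and its neighbour S100a9 held a C/EBP match at 236 to 229. Ngp held a C/EBP match at 138 to 131 and another at 11 to 4, and Ltf one at 75 to 68. Mpo held a PU.1 match at 224 to 217, and these letters were not in the window of Camp. Over all 10 genes, 5 windows held the C/EBP letters, 3 the PU.1 letters and 1 the TATA letters. Of 32817 promoter windows of the same length, 9.57% held the C/EBP letters, 2.44% the PU.1 letters and 12.4% the TATA letters. A match is a description of the sequence and not evidence of binding. S100a8 and S100a9 lie next to each other on chromosome 3, and Camp, Ngp and Ltf lie on chromosome 9 with other genes between them.

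Library totals lay between 44444033 and 50051392 counts, and correlations of log2 CPM between libraries between 0.859 and 0.943, so no library looked like a repeat of another. CPM are counts scaled to library size with trimmed-mean (TMM) factors. The targeted gene Ctnnb1 stood between 209 and 313 CPM in all libraries (log2 0.11, edgeR adjusted p = 0.785), and counts of a whole gene do not check the loss of part of it. Cxcl12, the gene in the label of the cells, stood between 66.4 and 1001 CPM. Library cHet12 stood apart for the neutrophil genes, so log2 values of the tested members and list medians are also given without it.

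The 10 genes together took 2.06% of all counts in cHet12 (977760 counts) and far less elsewhere. Their share was 0.157% in cHet8, 0.0978% in cHet11 and 0.00546% in cHet14. In the cKO libraries it was 0.129% in cKO14, 0.0789% in cKO7, 0.00952% in cKO9 and 0.00256% in cKO15 (1166 counts). Ltf alone gave 54185 of the 61414 counts in cKO14 and 14956 of the 36966 in cKO7. It gave 1324 of 2497 in cHet14, 2159 of 4230 in cKO9 and 646 of 1166 in cKO15. The first place of cKO14 among the cKO libraries thus rests on Ltf. The exact 95% binomial interval ran from 2.059% to 2.068% in cHet12 and from 0.00242% to 0.00271% in cKO15, which covers counting error only. The groups overlapped, since cHet14 lay below 3 of the 4 cKO libraries. In summed CPM the highest library stood 757-fold above the lowest. Fewer neutrophils and less RNA per neutrophil cannot be told apart in such bulk samples.

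**Figure D1:**
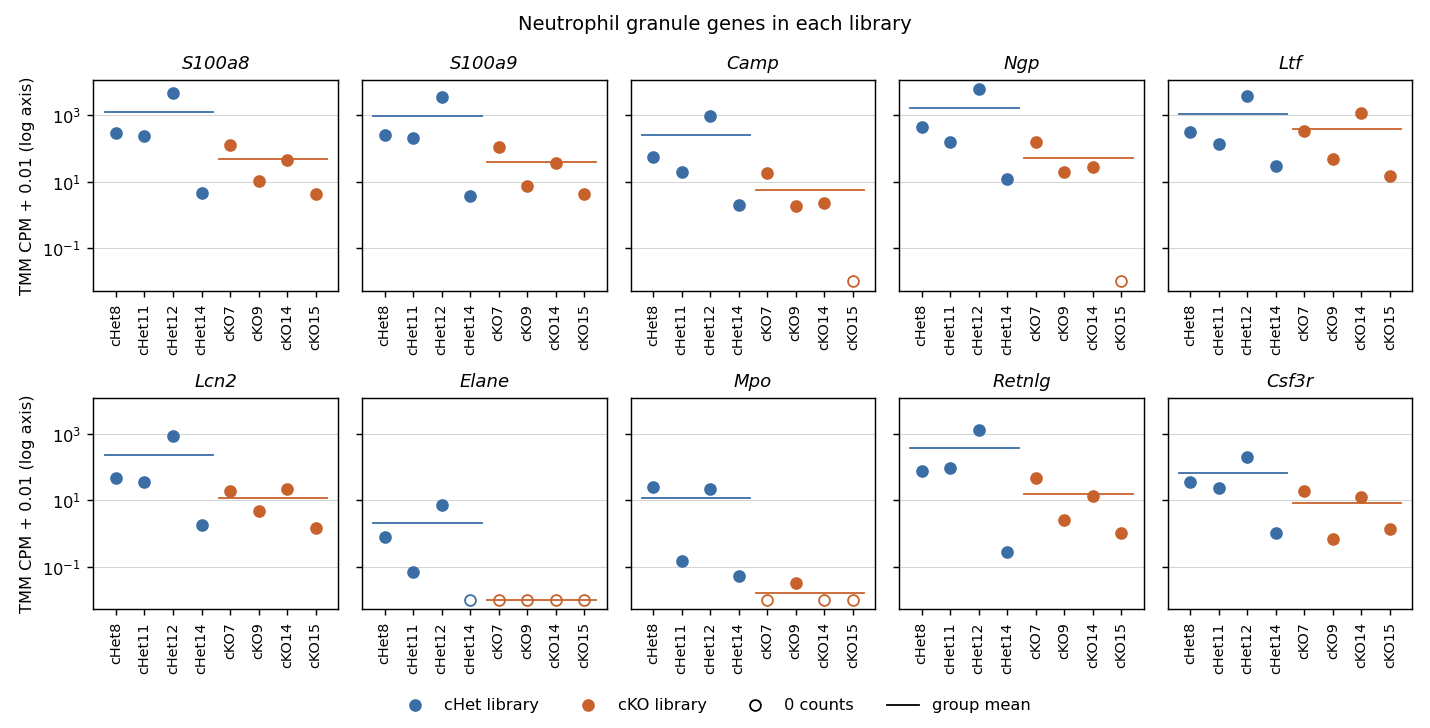
TMM CPM plus 0.01 on a log axis for each of the 10 neutrophil genes, with 1 point per library (blue for cHet, orange for cKO), open points for 0 counts and lines for group means. cHet12 was the highest library for 9 of the 10 genes, and cHet14 lay within or below the cKO range for all but Mpo, where it held 2 counts.

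S100a8 and S100a9 encode the 2 chains of calprotectin, the most abundant cytosolic protein of mature neutrophils. S100a8 (ENSMUSG00000056054.10) stood at 283 CPM in cHet8, 229 in cHet11, 4461 in cHet12 and 4.36 in cHet14, and at 128 in cKO7, 10.4 in cKO9, 43.2 in cKO14 and 4.28 in cKO15. S100a9 (ENSMUSG00000056071.13) stood at 257, 208, 3380 and 3.76 CPM in the same cHet order and at 110, 7.36, 36.2 and 4.21 in the cKO order. Both genes had 3 high cHet libraries and 1 low one, so the groups overlapped. Group means were 1244 ± 2148 CPM in cHet and 46.5 ± 57.2 in cKO for S100a8 (SD, n = 4 each), a 26.7-fold ratio of means. The log2 fold change of cKO against cHet was −4.74 for S100a8 (SE 1.88, 95% interval −9.03 to −0.46, edgeR adjusted p = 0.249). For S100a9 it was −4.61 (SE 1.83, edgeR adjusted p = 0.249). Neither passed the adjusted threshold of 0.05, and without cHet12 the values were −1.89 (edgeR adjusted p = 0.578) and −1.99 (0.557). An exact permutation test on log2 CPM over the 70 assignments of libraries gave p = 0.229 for both, two-sided, where the smallest possible p is 0.0286.

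Ngp, Camp, Ltf and Lcn2 are genes of the secondary granule stage. Ngp (ENSMUSG00000032484.9) encodes neutrophilic granule protein and stood at 437, 152, 5932 and 12.1 CPM in cHet8, cHet11, cHet12 and cHet14. In cKO7, cKO9 and cKO14 it stood at 151, 19.1 and 28.0 CPM, and cKO15 had 0 counts, which allows up to 0.0706 CPM. Camp (ENSMUSG00000038357.11), which encodes the antimicrobial peptide precursor cathelicidin, followed the same order of libraries among cHet, at 53.3, 19.9, 922 and 1.97 CPM. In the cKO order it stood at 18.2, 1.77, 2.28 and 0 CPM, so cKO15 lacked both genes. Means were 1633 ± 2872 and 49.4 ± 68.4 CPM for Ngp (log2 −5.05, SE 2.18, edgeR adjusted p = 0.285) and 249 ± 449 and 5.57 ± 8.4997 CPM for Camp (log2 −5.48, SE 2.10, edgeR adjusted p = 0.239). Without cHet12 the log2 values were −2.02 for Ngp (edgeR adjusted p = 0.632) and −2.17 for Camp (0.586).

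Lcn2 (ENSMUSG00000026822.15) encodes lipocalin 2, which binds bacterial siderophores. It stood at 45.2, 35.9, 826 and 1.81 CPM in the cHet libraries and at 19.1, 4.63, 22.0 and 1.46 in the cKO libraries, in the same order. Only cHet12 lay well above the rest, by 18.3-fold over the next library. The log2 value was −4.27 (SE 1.68, edgeR adjusted p = 0.248), and −1.23 without cHet12 (0.669).

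Ltf departed from the other members most in library cKO14, and less so in others. Its log2 CPM stood 0.887 to 1.45 above the mean of the other tested members in cHet8, cHet11 and cHet12. It stood 2.78 above it in cKO7, 3.54 in cKO9, 3.71 in cHet14, 4.44 in cKO15 and 6.14 in cKO14. Ltf (ENSMUSG00000032496.8) encodes lactoferrin, an iron-binding protein of secondary granules that glands also secrete. It stood at 301, 135, 3712 and 28.6 CPM in the cHet order and at 333, 48.3, 1177 and 15.2 in the cKO order. cKO14 thus had the second-highest value of all libraries for Ltf, while it was the fifth for 6 other members. Means were 1044 ± 1782 CPM in cHet and 394 ± 542 in cKO, and the log2 value was −1.41 (SE 1.60, 95% interval −5.07 to 2.25, edgeR adjusted p = 0.723). Its sign turned without cHet12 (1.34, edgeR adjusted p = 0.717) and in limma voom with quality weights (0.68, adjusted p = 0.831). Dmbt1, a secreted mucosal protein named after its values were seen, also peaked in cKO14, at 374 CPM against 0.306 to 41.1 CPM in the other libraries. Other secreted proteins on the olfactory epithelium list that holds Dmbt1, likewise named after their values were seen, did not peak there: Bpifb3 stood at 125 CPM in cKO14 and 251 in cHet8, and Reg3g at 48.6 in cKO14 and 301 in cKO7. Obp1a had 0 counts and Obp2a 5 counts in cKO14, and both were highest in cHet8. The part of gland transcripts in the Ltf value was not tested.

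Elane and Mpo, the primary granule genes, were the scarcest members and did not pass the filter on low counts. Elane (ENSMUSG00000020125.8) encodes neutrophil elastase and had 345 counts in cHet12, 40 in cHet8, 3 in cHet11 and 0 in the other 5 libraries. Against the limit that 0 counts over the whole cKO group allow (3 counts), cHet was at least 116-fold higher, a counting bound that rests on cHet12, and at least 16.9-fold without it. Mpo (ENSMUSG00000009350.14) encodes myeloperoxidase and had 1252 counts in cHet8, 995 in cHet12, 7 in cHet11, 2 in cHet14, 1 in cKO9 and 0 in the other cKO libraries. It was the only member highest in cHet8, at 24.1 CPM against 21.1 in cHet12. It was also the only member whose groups did not overlap (exact permutation p = 0.0286, the smallest possible), by 2 counts in cHet14 against 1 in cKO9. Among the genes that passed the filter, which Mpo did not, 10.1% had no overlap between the groups. With no filter, edgeR gave an adjusted p of 0.0939 for Mpo and 0.264 for Elane. The ratio of summed counts scaled for depth was 2029 for Mpo, with an exact 95% counting interval of 364 to 80170, and 1488 without cHet12 (267 to 58810). These ratios pool counts over libraries, and their intervals cover counting error only. The first rests on cHet8 and cHet12, with 1252 and 995 of the 2256 cHet counts. The second rests on cHet8 alone, with 1252 of 1261.

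Retnlg and Csf3r mark mature neutrophils. Retnlg (ENSMUSG00000022651.7), which encodes a resistin-like secreted protein, stood at 76.2, 94.4, 1306 and 0.259 CPM in the cHet order and at 45.5, 2.42, 12.8 and 0.988 in the cKO order. It had the widest spread of the members detected in every library, 5040-fold between cHet12 and cHet14. Csf3r (ENSMUSG00000028859.15), the receptor for granulocyte colony-stimulating factor, stood at 34.7, 22.3, 199 and 0.993 CPM in the cHet order and at 18.9, 0.649, 12.7 and 1.29 in the cKO order. The log2 value was −4.58 for Retnlg (SE 1.997, edgeR adjusted p = 0.290) and −2.94 for Csf3r (SE 1.48, edgeR adjusted p = 0.357). Without cHet12 these were −1.88 (edgeR adjusted p = 0.644) and −1.20 (0.734). Both genes were lowest in libraries other than cKO15, Retnlg in cHet14 and Csf3r in cKO9.

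Of the 8 members that passed the filter, 0 were called by edgeR at an adjusted p under 0.05, beside 1.13% of the 21508 tested genes called in either direction and 0.0558% called lower. At an unadjusted p under 0.05, 6 of the 8 stood lower in cKO, beside 6.33% of all tested genes. DESeq2 called S100a8 (adjusted p = 0.0290) and S100a9 (0.0228) lower, beside 4.33% of its tested genes called lower and 13% in either direction. For Camp, Ngp, Ltf and Lcn2 it gave log2 values but no p, as its default filter for outlying counts does. Its 2 calls are thus out of 4 members with a p. Limma voom with quality weights called 0 members, with 0 at an unadjusted p under 0.05, beside 1.26% of genes called lower and 7.22% in either direction. Without cHet12, edgeR called 0 members and 0 of 22258 genes, and 0 members had an unadjusted p under 0.05, beside 4.97% of genes lower at that level. Omission of cKO9, of cKO14 or of cKO15 also left 0 of the 8 members at an unadjusted p under 0.05, while the log2 values stayed between −5.22 and −1.01. The median log2 value of the 8 members was −4.59 with all libraries and −1.89 without cHet12, beside −0.03 and −0.02 over all tested genes. Without cKO7, which was the highest cKO library for the tested members apart from Ltf and Lcn2, the median was −5.97.

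**Figure D2:**
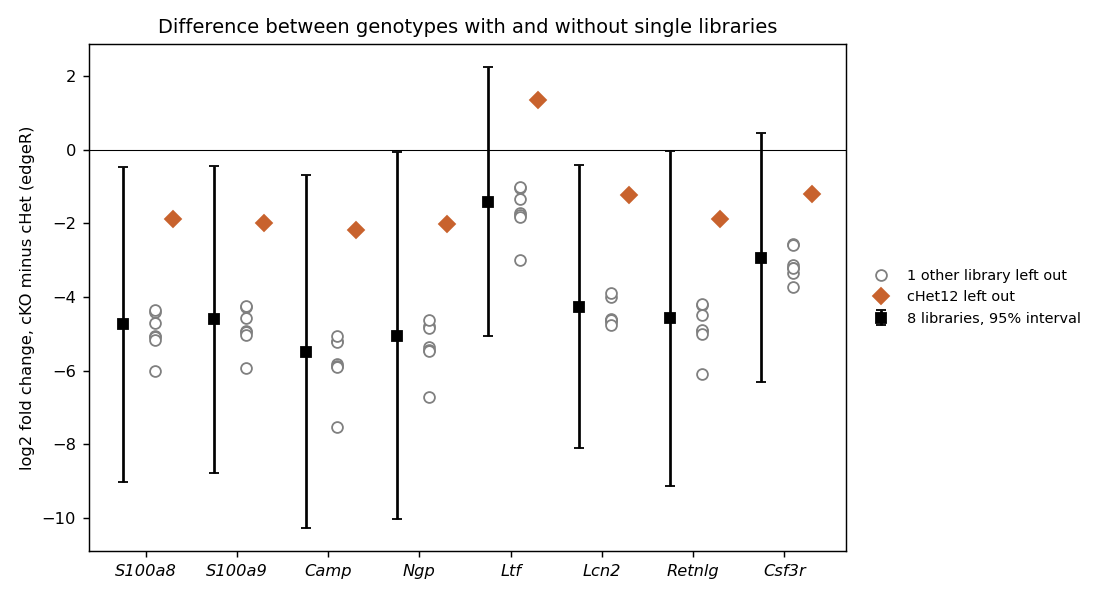
edgeR log2 fold changes of the 8 tested members, cKO minus cHet, with all 8 libraries (black squares, 95% interval), with 1 library other than cHet12 left out (open circles) and without cHet12 (orange diamonds). Without cHet12 the values lay between −2.17 and 1.34, above those of every other omission for each gene.

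The libraries kept nearly the same order from gene to gene. Over the 8 tested members, none of which had ties, cHet12 ranked highest for 8. cHet8 was the second, cHet11 the third, cKO7 the fourth, cKO14 the fifth and cKO9 the sixth, each for 6 members, and cKO15 was the lowest for 5. Across the 8 libraries, Pearson correlations of log2 CPM between the tested members other than Ltf lay between 0.800 and 0.999, highest for S100a8 with S100a9. Those of Ltf with the other 7 lay between 0.795 and 0.909. Without the 2 libraries farthest from the median, cHet12 and cKO15, the ranges were 0.784 to 0.999 and 0.336 to 0.762 over 6 libraries. The libraries share their total count and TMM factor across genes, and these correlations are a description.

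Ratios within a library separate pairs that held together from pairs that did not. S100a9 had between 0.711 and 0.984 counts per count of S100a8, a 1.38-fold range, while S100a8 itself varied 1042-fold. Camp had between 0.0816 and 0.162 counts per count of Ngp in the 7 libraries with Ngp counts, a 1.98-fold range. Ltf had 0.626 counts per count of Ngp in cHet12 and 42.1 in cKO14, a 67.3-fold range, wider than that of Camp. It had between 2.21 and 2.53 in cHet14, cKO7 and cKO9, and 0.690 and 0.890 in cHet8 and cHet11. Csf3r had 0.0446 counts per count of S100a8 in cHet12, its lowest ratio, and 0.302 in cKO15. Retnlg had between 0.231 and 0.413 in 7 libraries and 0.0594 in cHet14, where it rested on 12 counts. Mpo had 55.2 counts per 1000 counts of Ngp in cHet8 and 3.56 in cHet12, whereas Elane had 1.76 and 1.24.

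**Figure D3:**
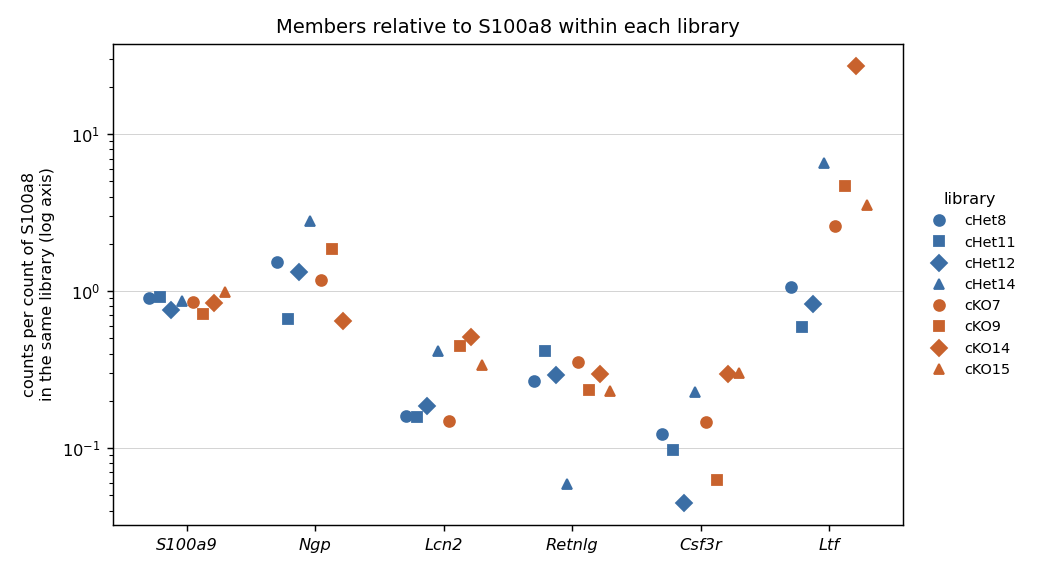
Counts of 6 members per count of S100a8 in the same library on a log axis, with 1 symbol per library (blue for cHet, orange for cKO). S100a9 stayed within 0.711 to 0.984, and Ltf reached 27.3 in cKO14.

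Per kilobase of exon, with lengths from the GENCODE M21 basic annotation, S100a8 had the highest level of the members in 6 of the 8 libraries. In cHet12 it stood at 9179 CPM per kilobase, before S100a9 at 6475, Ngp at 4854, Retnlg at 2202, Ltf at 1325, Camp at 1216 and Lcn2 at 903. Csf3r followed at 56.8, Elane at 7.45 and Mpo at 7.28, so the primary granule genes and the receptor were the lowest in that library. In cKO14 Ltf came first at 420 CPM per kilobase and S100a8 stood at 88.8. Ltf also came first in cHet14, at 10.2, where Ngp at 9.94 and S100a8 at 8.98 lay close to it. Between libraries each of these genes varied by more than the distance between neighbours in the order.

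Most other neutrophil genes also had their highest level in cHet12. Of 51 further genes in 3 lists (primary granule and promyelocyte, secondary and tertiary granule, mature neutrophil), 48 were tested, 0 were called by edgeR in either direction, and 29 stood lower at an unadjusted p under 0.05, beside 6.33% of all tested genes. The median log2 value was −3.49, and 47 of the 48 had their highest CPM in cHet12, beside 13.0% of all tested genes. Without cHet12 the median of the 48 was −1.49, with 43 negative, 4 lower at an unadjusted p under 0.05 (beside 4.97% of genes) and 0 called. By list, tested members included, the median went from −1.85 to −1.0002 for primary granule and promyelocyte genes, from −3.92 to −1.49 for secondary and tertiary granule genes and from −3.47 to −1.56 for mature neutrophil genes. Among secondary and tertiary granule genes, the collagenase gene Mmp8 stood at 113, 73.3, 1168 and 0.281 CPM in the cHet order and at 63.0, 2.51, 13.5 and 2.14 in the cKO order. Chil3, a chitinase-like protein, had means of 165 ± 282 and 3.92 ± 5.09 CPM (log2 −5.39, SE 1.95, edgeR adjusted p = 0.215; −2.62 and 0.490 without cHet12). The NADPH oxidase gene Cybb had 130 ± 190 and 10.6 ± 5.15 CPM (log2 −3.62, SE 1.10, edgeR adjusted p = 0.158), and a log2 value of −1.78 without cHet12 (0.272). Mmp9, which osteoclasts also make, had 290 ± 409 and 57.9 ± 26.2 CPM (log2 −2.32, edgeR adjusted p = 0.258), and −0.58 without cHet12 (0.649). Anxa1, with the highest mean CPM on this list outside the set, stood at 317 CPM in cKO7 and 261 in cHet8. Its log2 value was −1.20 (edgeR adjusted p = 0.522), and 0.40 without cHet12 (0.719). Without cHet12, 14 of the 17 tested genes of this list were negative.

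Among mature neutrophil genes, all 33 had negative log2 values, between −5.13 for Ly6g and −0.49 for Cxcr4. All 33 were highest in cHet12, and 31 were negative without it. The value of Ly6g was then −2.18 (edgeR adjusted p = 0.513). Ly6g, the surface marker used to sort mouse neutrophils and named here after its values were seen, stood at 70.8 CPM in cHet12, at 0.130 to 4.09 in the other cHet libraries and at 0 to 1.11 in cKO. Itgb2, the beta-2 integrin of leukocytes, had means of 92.4 ± 136 and 10.9 ± 9.65 CPM, and Ncf1, an NADPH oxidase subunit, 77.3 ± 121 and 4.74 ± 1.81 CPM. Their log2 values were −3.09 and −4.02, and −1.19 and −1.84 without cHet12. Il1b, the cytokine interleukin 1 beta, stood at 84.8, 58.8, 184 and 2.94 CPM in the cHet order and at 25.4, 2.01, 26.1 and 9.41 in the cKO order.

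Genes of the promyelocyte stage did not all share this pattern. Fcnb, a ficolin of immature neutrophils, had 2848 counts in cHet12, 128 in cHet8, 95 in cHet11, 57 in cKO7, 6 in cHet14 and 0 in the other cKO libraries. Cebpe, the transcription factor of secondary granule formation, stood at 34.2 CPM in cHet12 and at 0.109 to 1.75 CPM elsewhere. Ctsg, encoding cathepsin G and named after its values were seen, had 87 counts in cHet8, 65 in cHet12 and 0 in the other 6 libraries, with cHet8 the highest as for Mpo. Prtn3, encoding proteinase 3, stood between 3.69 and 7.99 CPM in all 8 libraries, and Cebpa between 6.37 and 22.0 CPM, neither with the range of the members.

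Growth factor, chemokine and adhesion genes were also listed, not all of which act mainly on neutrophils. Csf3, which encodes the ligand of the Csf3r receptor, had between 0 and 21 counts in each library. Cxcl1, a ligand of the neutrophil receptor Cxcr2, had means of 7.90 ± 4.64 CPM (cHet) and 12.4 ± 2.72 CPM (cKO), with a log2 value of 0.65 (SE 0.41, edgeR adjusted p = 0.478). Cxcl2, another such ligand, lay between 4.47 and 71.6 CPM in cHet and between 5.35 and 18.1 CPM in cKO. Its log2 value was −1.51 (SE 0.71, edgeR adjusted p = 0.325), and −0.86 without cHet12 (0.600). Csf1 (log2 1.19, SE 0.39, edgeR adjusted p = 0.184) and Icam1 (1.43, SE 0.45, 0.173) had positive values and were not called. The receptor gene of Csf1, Csf1r, is on the macrophage list. Of the 9 tested genes of the 15 on this list, 6 had positive log2 values and 3 negative. Their median was 0.65, and 0.42 without cHet12, where 10 were tested. Cxcl12, which holds neutrophils in bone marrow through Cxcr4, was the only gene called of these 9, beside 1.13% of all tested genes. It rose from 149 ± 91.5 to 826 ± 238 CPM (log2 2.47, SE 0.46, edgeR adjusted p = 0.0497). That call was lost without cHet12, cHet14 or cKO14, where edgeR called 0 genes in all. Its receptor gene Cxcr4 stood between 2.56 and 12.9 CPM in all libraries, with no wide range like that of Cxcr2, at 0.194 to 122 CPM. Of the 16 mesenchyme markers, 14 also had positive log2 values, with a median of 1.26, beside 10225 of all 21508 tested genes. They summed to between 4744 and 14114 CPM in cHet and between 15737 and 33359 CPM in cKO. How far the Cxcl12 value goes with these markers was not tested.

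Markers of other cell types were read beside the members. The 10 pan-leukocyte markers, among them the leukocyte phosphatase gene Ptprc and the actin-binding protein gene Coro1a, all had their highest CPM in cHet12. They summed to 2483 CPM in cHet12, 555 in cHet8, 289 in cHet11 and 105 in cHet14, and to between 69.3 and 179 in cKO. The members had 8.37 counts per pan-leukocyte count in cHet12, 7.81 in cKO14, 4.61 in cKO7 and between 2.73 and 3.11 in cHet8 and cHet11. The ratio was 1.37 in cKO9, 0.512 in cHet14 and 0.343 in cKO15. In cKO14, Ltf gave 54185 of the 61414 member counts, so the ratio there rests mostly on Ltf. S100a8 had 16.6 counts per Ptprc count in cHet12, 7.25 in cKO7, 6.68 in cHet11, 4.85 in cHet8 and 2.29 in cKO14. It had between 0.349 and 1.75 in cHet14, cKO9 and cKO15. The 16 macrophage and monocyte markers summed to between 152 and 3248 CPM, a 21.4-fold range against the 757-fold range of the members. Lyz2, which neutrophils also express, gave 2455 CPM of the sum in cHet12, and the macrophage receptor gene Csf1r stood at 171 CPM there and 154 in cHet8. Of the pan-leukocyte list 0 of 10 genes, and of the macrophage list 0 of 16, were called by edgeR, with 10 and 12 of them lower at an unadjusted p under 0.05, beside 6.33% of all tested genes, and median log2 values of −2.74 and −1.28. Without cHet12 the medians were −1.43 and −0.99, with 3 and 2 genes lower at an unadjusted p under 0.05.

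Summed red cell and epithelial markers did not have such a range. Single genes on the olfactory epithelium list did, since Bpifb3 varied 2911-fold and Dmbt1 1223-fold. The 9 matched erythroid markers summed to between 138 and 219 CPM, a 1.59-fold range, and Car2 gave 145 of the 198 CPM in cHet8. The 12 dental and oral epithelium markers lay between 766 and 1105 CPM, lowest in cHet12. The 7 ameloblast markers summed to between 2315 and 11465 CPM, a 4.95-fold range. Olfactory epithelium markers summed to between 5149 and 11170 CPM, highest in cHet14, and mesenchyme markers to between 4744 and 33359 CPM, lowest in cHet11 and highest in cKO15, where the members were lowest. Among lymphocyte markers Cd3e had between 0 and 32 counts, and Ebf1, which is not limited to lymphocytes, gave most of the list's 335 to 541 CPM. The part of any of these cell types in the neutrophil values was not tested.

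**Figure D4:**
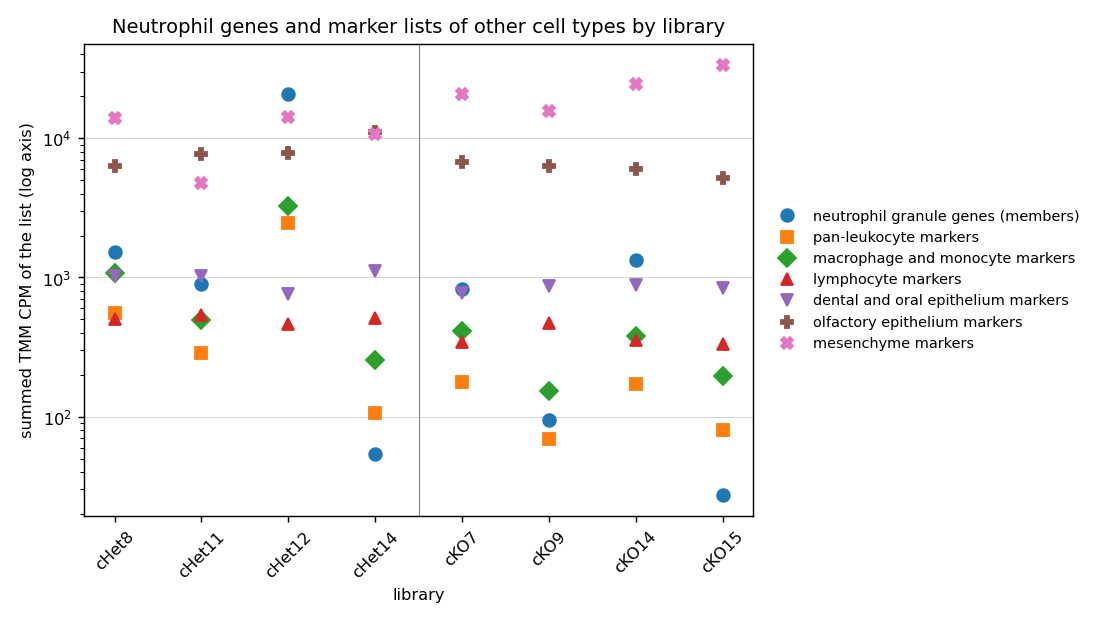
Summed TMM CPM on a log axis for the 10 neutrophil genes and 6 marker lists of other cell types in each library, with cHet at the left of the line and cKO at the right. The neutrophil sum ran from 27.4 CPM in cKO15 to 20767 in cHet12, while the dental and oral epithelium list stayed between 766 and 1105 CPM.

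The genes outside the set whose log2 CPM ran closest to the mean of the tested members were Padi4, Pglyrp1, Gmfg, Hp, Bin2, Wfdc21, Mir142hg, Rab44, Trem3, Igsf6, Lilr4b and C5ar1. Their Pearson correlations over the 8 libraries lay between 0.979 and 0.988, among 15119 candidates averaging 1 CPM or more, and between 0.934 and 0.999 without cHet12 and cKO15. Of these 12 genes, 5 were on the neutrophil lists. Padi4, the enzyme that citrullinates histones in neutrophils, headed them with 167 CPM in cHet12, 12.6 in cHet8, 6.70 in cHet11 and 0.0864 in cHet14, and with 3.95, 0.873, 2.17 and 0 CPM in the cKO order. C5ar1, the receptor for complement C5a, stood at 184 CPM in cHet12 and at 2.82 to 44.9 CPM elsewhere. These correlations are over the same 8 libraries that set the pattern and describe likeness alone.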

How the data were processed

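The authors' deposited table holds raw whole-number counts per Ensembl gene. Trim Galore, STAR, GRCm39 and mm39 are listed in the submitters' processing notes, without versions, annotation or the counting tool. Per the labels' protocols, cDNA came from a SMART-Seq v4 kit for low input, with no molecular identifiers named, so counting intervals cover counting error only. Identifiers were matched without version to a gene name table (52073 of 56748 matched), and the identifier with the highest count stood for a symbol.

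The genotype comparison used edgeR 4.0.16 under R 4.3.3 (TMM factors, default expression filter by group, quasi-likelihood F test on genotype, Benjamini-Hochberg adjustment over 21508 genes). The SE was approximated as the log2 value over the square root of F. Single genes were also compared by exact permutation over 70 assignments of log2 CPM (prior count 2). DESeq2 1.42.0, limma 3.58.1 voom, other factors and filters, and omission of each library were alternatives. The scripts were tested on simulated data. The members and lists were chosen with earlier results of these data known. All members were named, and from each other list up to 6 genes outside the set with the highest mean CPM, plus called genes; 12 genes were named for likeness, and exceptions are marked. Cxcr2, Cxcr4, Csf3, Cd3e and C/EBP and PU.1 letters were also chosen after values or sequences were seen. RefSeq promoters of GRCm38.p6 matched all 10 members.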

Additional observations from a re-analysis of the deposited data

Results flagged for a closer look

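Within the 4 cHet libraries, the gap between cHet12 and the next library, as a share of the whole range of CPM, was past Dixon's 95% critical value for 4 samples for 9 members and for their sum. It was 0.937 for S100a8, 0.925 for S100a9, 0.944 for Camp, 0.928 for Ngp, 0.926 for Ltf, 0.947 for Lcn2, 0.895 for Elane, 0.928 for Retnlg and 0.830 for Csf3r, and 0.930 for the sum of the 10 genes. Among cKO libraries the share was 0.875 for Camp, highest in cKO7, and 1 for Mpo, where cKO9 held the only count. Chance flags about 1 in 20 groups, the 10 genes share the same libraries, and on the log2 scale 0 of 19 groups were past that value, against 11 of 19 on the CPM scale.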

How the results depend on the processing

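The count of called members was 0 in every alternative run except DESeq2, where it was 2. The count of called genes over the whole table was 244 and moved to 2557 in DESeq2, 1552 in limma voom with quality weights and 5 with libraries scaled to mesenchyme markers, where the median of all genes stood at −1.31. Leaving out 1 library gave between 0 and 960 called genes, with 0 without cHet12, cHet14 or cKO14 and 960 without cKO9, and 0 called members each time. Omissions of 2 libraries added after the data were seen, cHet12 with cKO14 and cHet12 with cHet14, gave 0 called genes each, with 2462 and 2227 at an unadjusted p under 0.05. The sign turned for Ltf alone, with log2 values of 0.68 in voom and 0.85 without cHet12 and cHet14, and between −2.98 and 1.34 over the omissions of 1 library. Omission of cHet12 moved the other tested members to between −2.17 and −1.20; the cause was not tested. No paired analysis was possible because the numbers in the column names match no replicate number in the labels. Summing identifiers that share a symbol changed no member, since each had 1 identifier. Low or 0 counts limit the values of Elane, Mpo and the cKO15 values of Ngp and Camp. Library cKO15 had 45493151 counts in all and cHet14 had 45759087, with 182 and 202 counts of S100a8. Ngp had 0 and 562 counts in these libraries, and Camp 0 and 91. The part of depth or of input in these low counts was not tested.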

Other observations

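The eosinophil genes Prg2 and Ear2 also had their highest level in cHet12, while the mast cell protease genes Tpsb2, Cma1 and Cpa3 were highest in cHet8. The rest of their list, named to complete it, did not all follow. Epx was highest in cHet12 only narrowly, with 39 counts against 25 in cHet11 and 23 in cKO7. Mcpt4 and Mcpt8 were highest in cHet8, and Fcer1a in cKO14 with 127 counts. Kit was highest in cHet12, at 65.5 CPM against 60.2 in cHet8. Prg2, the major basic protein of eosinophil granules, had 734 counts in cHet12, 35 in cHet11, 14 in cHet8, 1 in cKO9 and 0 in the other 4 libraries. Ear2, an eosinophil-associated ribonuclease, stood at 12.9 CPM in cHet12, 2.33 in cHet8, 0.664 in cHet11 and 0.435 in cKO14, and had 0 counts in the other 4 libraries. The mast cell tryptase gene Tpsb2 stood at 9.73 CPM in cHet8, 4.24 in cKO14, 2.87 in cKO9 and 2.71 in cHet11, and had 0 counts in cHet12, cHet14, cKO7 and cKO15. Cma1, a mast cell chymase, had 0 counts in the same 4 libraries. Cpa3, the mast cell carboxypeptidase, had 581 counts in cHet8, 122 in cHet11, 95 in cKO14, 50 in cKO9, 20 in cHet12, 14 in cKO15, 2 in cHet14 and 0 in cKO7. Prg2 did not pass the filter, and none of Ear2, Tpsb2 and Cma1 was called by edgeR (adjusted p = 0.271, 0.897 and 0.797).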
